A study of Mus musculus with 6 samples.

Results

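SR protein and hnRNP genes were defined by name as the protein-coding genes of GENCODE M21 on mm10 whose symbol starts with Srsf or Hnrnp, and 31 of 21938 protein-coding genes on the main chromosomes met this definition. They comprised 11 SR protein genes and 20 hnRNP genes. The study asked which mRNAs enter the RISC, the complex that carries the miRNA, when miR-222 is raised in muscle cells. RNA bound to Ago2, the RISC protein that holds the miRNA, was immunoprecipitated (RISC-IP) and sequenced from MSC myocytes, which are primary mouse satellite cells, the progenitors of skeletal muscle, after withdrawal from the cell cycle.

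All groups were primary cells, for which the sources used here name no transgene or deletion. They were kept for 30 h in differentiation medium, transfected with 10 nM duplex RNA per the labels and lysed after a further 16 h. The study's methods give a higher duplex concentration. Control-IPs came from cells given an siGFP duplex, directed against a jellyfish protein that these cells do not make, and miR-222-IPs from cells given miR-222. Experiment 1 had 2 control-IPs, replicates 1 and 2, beside miR-222-IP replicate 1. Experiment 2 had 2 more control-IPs, replicates 3 and 4, beside miR-222-IP replicate 2. The title of the library of miR-222-IP replicate 2 leaves out the last digit of the miRNA's name, whereas its condition gives miR-222. Age and strain of the mice are not given in the sources used here, and no source states that the libraries of an experiment came from separate cultures, so p-values measure only the spread between these samples.

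Each library is a list of peaks with a score, the −log10 of the peak's p-value, and every listed score was at least 20. The lists held 10579 to 37762 peaks in the 5 libraries compared here. Control-IP replicate 3 stood apart, with a median peak width of 32103 bp against 362 to 411 bp in the others, and is given separately. The lists give no read counts, and the number of reads behind a score is unknown. A higher score can come from more RNA or from more reads. No source names an input track, so a peak does not separate RNA held by Ago2 from RNA that came down with the beads. Of 12 markers of differentiating myocytes listed for this check, all 12 had an exonic peak in at least 1 of the 5 libraries and 8 in every library, whereas of 12 markers of fibroblasts, endothelium, blood and fat cells 7 had a peak in at least 1 library and 3 in every library. Over all protein-coding genes the shares were 46.9% and 19%. The markers of other cells were thus called no less often than genes in general. Among these markers Adipoq, Dcn, Kdr, Lum and Plin1 had no peak. What part the other cells of the culture had in the peaks described here was not tested.

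SR proteins bind exons through RNA recognition motifs and recruit the spliceosome through a domain rich in arginine and serine, whereas hnRNPs coat nascent transcripts and often repress exon use. Both families regulate their own level. Many of their genes carry a so-called poison exon, whose inclusion brings a premature stop codon and sends the transcript to nonsense-mediated decay (NMD), a surveillance pathway coupled to translation. Exon bases of annotated NMD transcripts that lie in no exon of a protein-coding transcript of the same gene are called NMD-only here. Transcripts of other classes, such as retained-intron transcripts, can also run through them.

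The sequences of most interest are the poison exons of Srsf3 and Srsf7, which lay under peaks in 4 of 5 libraries each. Srsf3, the smallest SR protein, and Srsf7 both act in splicing and mRNA export. The exon of Srsf3 is exon 4 of 7 in the transcript Srsf3-201 (chr17:29039454-29039909 on mm10, plus strand, 456 bp), and that of Srsf7 is exon 4 of 9 in Srsf7-203 (chr17:80204622-80205081, minus strand, 460 bp). Both exons also lie in full in a retained-intron transcript of their gene, of which 3 overlap each exon, so a peak over them does not tell inclusion of the exon from retention of the introns around it. The exon starts are shown as 15 intron bases in lower case followed by 15 exon bases in capitals. The windows around the premature stop show the stop codon in capitals.
Srsf3 exon start: tgaaccccgttacagAGTCACCATCATGTC
Srsf3 stop codon: ctcaccaccctcTGAatctgcattagc
Srsf7 exon start: gtcaaaacctttcagGTTTCTTCGTTTGAG
Srsf7 stop codon: agtcagtcgcctTGAttcagaatgtca
Both introns ended in AG. The stop codon began at base 32 of the Srsf3 exon, with 422 exon bases downstream of it, and at base 26 of the Srsf7 exon, with 432 exon bases downstream.

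The sites searched for first were those of miR-222, which was transfected. Those of miR-206, which skeletal muscle makes, were searched with 2 other miRNAs after the data had been seen, and miR-206 is shown because its 7-mer lay in both poison exons. The mature sequences are from RefSeq on GRCm38.p6, with the seed (bases 2 to 8) in capitals.
mmu-miR-222-3p: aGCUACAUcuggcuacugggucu
mmu-miR-206-3p: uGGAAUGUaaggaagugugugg
The seed matches in transcripts are the 7-mers ATGTAGC for miR-222 and ACATTCC for miR-206, searched on the strand of the gene.

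Nearly all members of both families had peaks over exons. An exonic peak, one that overlaps an exon of any transcript of the gene by at least 1 bp, was found in 30 of 31 members in at least 1 of the 5 libraries, against 46.9% of all protein-coding genes. In every one of the 5 libraries it was found in 23 of 31 members, against 19% of all genes. Of genes with an exonic peak in at least 1 library, 23 of 30 members and 40.4% of all genes had one in all 5. By library, members called and the share of all genes were 25 of 31 and 21.4% in control-IP replicate 1, 26 of 31 and 34.8% in control-IP replicate 2, and 30 of 31 and 29.8% in control-IP replicate 4. They were 30 of 31 and 33.2% in miR-222-IP replicate 1, and 30 of 31 and 44.7% in miR-222-IP replicate 2. The control-IP of experiment 2 and both miR-222-IPs had the same count, and apart from Srsf12 every missing peak was in the control-IPs of experiment 1. With only peaks scoring above 50, the count in all 5 libraries fell to 13 of 31, against 6.56% of all genes.

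**Figure D1:**
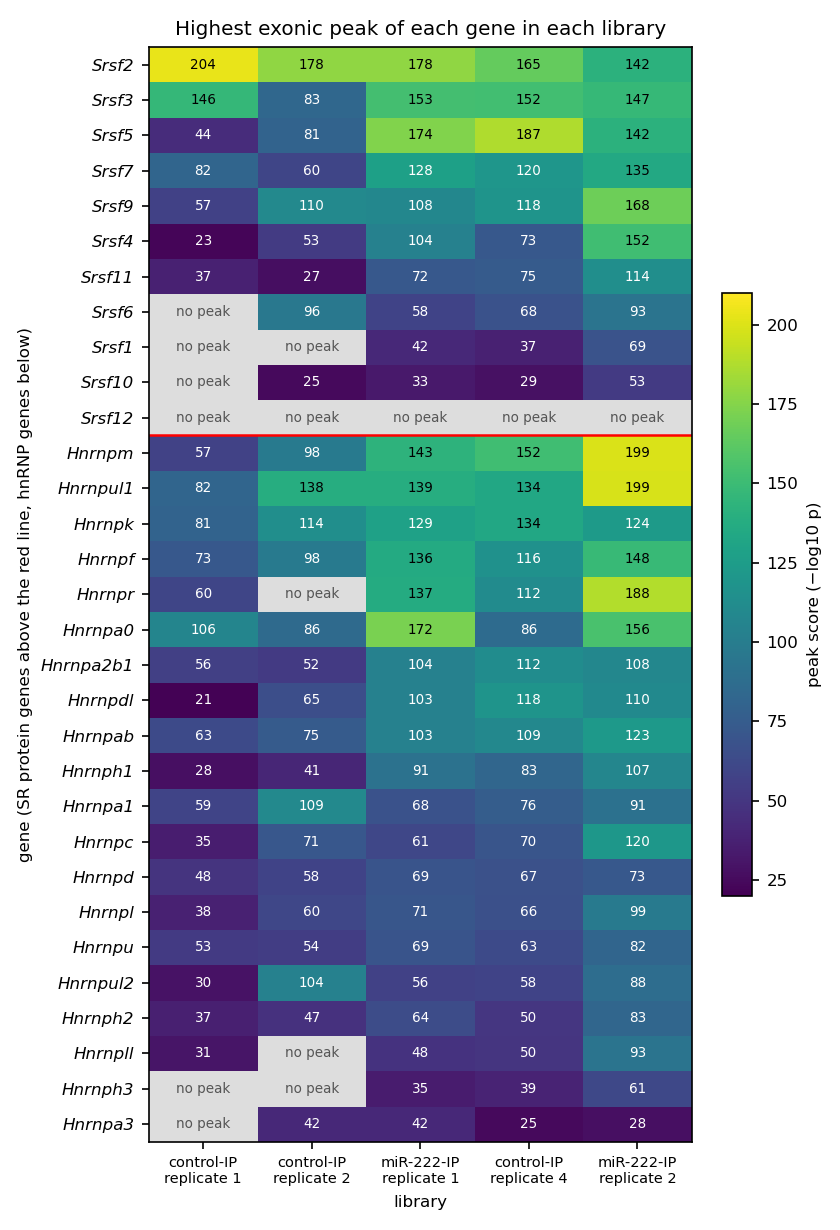
Highest exonic peak score (−log10 p, number and colour) of each of the 31 genes (rows) in each of the 5 libraries (columns), SR protein genes above the red line and hnRNP genes below, each family ordered by its median. Grey cells have no exonic peak, and apart from the row of Srsf12 they lie in control-IP replicates 1 and 2.

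Among SR protein genes, 7 of 11 had an exonic peak in all 5 libraries, namely Srsf2, Srsf3, Srsf4, Srsf5, Srsf7, Srsf9 and Srsf11. Srsf2, which takes part in exon definition and whose own mRNA is spliced alternatively in its 3'UTR, had the highest median of all members, 178. Its highest exonic scores were 204, 178 and 165 in control-IP replicates 1, 2 and 4, and 178 and 142 in both miR-222-IPs, given here and below in the order of their replicate numbers. This interval (chr11:116849903-116851065) covered the 3'UTR and also an exon of Mettl23, and reads of the 2 genes cannot be told apart here since the library kit does not mark strand. Srsf3 scored 146, 83.3 and 152 in the same control-IPs, and 153 and 147 in the miR-222-IPs, so that control-IP replicate 2 was low and the other libraries lay close together. Srsf5 scored 44.2, 80.8 and 187 in the control-IPs, and 174 and 142 in the miR-222-IPs, which fall inside the range of the controls. The medians of Srsf7, Srsf9, Srsf4 and Srsf11 over the 5 libraries were 120.1, 109.7, 72.5 and 72.2.

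Of the SR members, 4 lacked an exonic peak somewhere, and the missing libraries were control-IP replicates 1 and 2 in all but Srsf12. Srsf1, the prototype of the family, had none in either of these and scored 37.2 in control-IP replicate 4, and 41.7 and 68.9 in the miR-222-IPs. Srsf6 had none in control-IP replicate 1 and scored 96.4 and 67.8 in control-IP replicates 2 and 4, and 57.9 and 93.4 in the miR-222-IPs. Srsf10, a splicing repressor when dephosphorylated, had none in control-IP replicate 1 and scored 25.1 and 28.7 in the other control-IPs, and 33.3 and 52.6 in the miR-222-IPs. Srsf12 had no peak in any of the 5 libraries.

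Among hnRNP genes, 16 of 20 had an exonic peak in all 5 libraries. Hnrnpm, which binds GU-rich RNA, scored 57.5, 97.8 and 152 in the control-IPs, and 143 and 199 in the miR-222-IPs. Hnrnpul1, a relative of the nuclear scaffold protein Hnrnpu, scored 82.3, 138 and 134 in the control-IPs, and 139 and 199 in the miR-222-IPs. Hnrnpk, which binds C-rich RNA, scored 80.7, 114 and 134 in the control-IPs, and 129 and 124 in the miR-222-IPs. In these 3 genes control-IP replicate 1 was lowest. The median of the highest exonic score over the 23 members with a peak in all 5 libraries was 56.0, 74.6 and 109.0 in the control-IPs and 103.5 and 123.1 in the miR-222-IPs. The order of these medians was not that of the numbers of peaks, since control-IP replicate 4 listed fewer peaks than control-IP replicate 2.

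The other hnRNP genes with a peak in all 5 libraries were Hnrnpa0, Hnrnpa1, Hnrnpa2b1, Hnrnpab, Hnrnpc, Hnrnpd, Hnrnpdl, Hnrnpf, Hnrnph1, Hnrnph2, Hnrnpl, Hnrnpu and Hnrnpul2. Their median scores ranged from 49.8 in Hnrnph2 to 116 in Hnrnpf, both of which bind G-tracts. Hnrnpr scored 59.8 and 112 in control-IP replicates 1 and 4, and 137 and 188 in the miR-222-IPs, without a peak in control-IP replicate 2. Hnrnpll, known for regulating Ptprc exons in T cells, also lacked a peak there and scored 31.1 and 49.5 in the other control-IPs, and 48.1 and 93.4 in the miR-222-IPs. Hnrnph3 had none in control-IP replicates 1 and 2, and scored 39.1 in control-IP replicate 4 and 34.6 and 60.8 in the miR-222-IPs. Hnrnpa3 had no exonic peak in control-IP replicate 1 and scored 41.9 and 24.6 in control-IP replicates 2 and 4, and 41.9 and 27.9 in the miR-222-IPs. In Hnrnpr, Hnrnpll and Hnrnph3, miR-222-IP replicate 2 had the highest score, and in Hnrnpa3 it did not. A library without a peak shows only that no peak passed the threshold, and not that the RNA was missing.

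In control-IP replicate 3, 15 of 31 members lay under a peak with exonic overlap, against 25.1% of all genes. These were all 15 members on the chromosomes on which that library had any peak. The share of all genes on these chromosomes alone was not counted, so the full count is not read as particular to the members. The peaks over the 15 members were 3203 to 174021 bp wide, with a median of 37974 bp, and 12 of the 15 spanned more than 1 protein-coding gene. They therefore do not assign signal to an exon, and the results below use them only where this is said.

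The peaks of the 5 libraries merged into 41363 intervals, of which 137 lay over members and 134 touched an exon. A member had a median of 4 exonic intervals, and 27 members had more than 1. Hnrnpul1 had the most, 12, and Hnrnpc, which binds U-rich RNA, had the widest, 2113 bp over the end of its coding region and its 3'UTR. Of the 134 exonic intervals, 37 had a peak in all 5 libraries and 35 in a single library, of which 30 were in miR-222-IP replicate 2, the library with the longest list. Over all genes 18.5% of exonic intervals had a peak in all 5 libraries and 31.6% in miR-222-IP replicate 2 alone. Both miR-222-IPs and no control-IP had a peak in 7 of 134, against 6.66% of all.

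All 30 members with an exonic interval had an interval over a 3'UTR, the usual place of miRNA sites. The same count was not made for all genes, so it is not read as particular to the members. In all, 38 of 134 intervals overlapped a 3'UTR, 12 of them without coding bases, whereas 85 overlapped coding bases without 3'UTR. A 5'UTR was touched by 15 of the 134, 5 of them without coding or 3'UTR bases. Another gene's exon was overlapped by 11 of the 134, among them those of Phykpl at Hnrnpab, Rmi1 at Hnrnpk and Cox20 at Hnrnpu. By library, 28.9% to 50% of the members' exonic peaks overlapped a 3'UTR, against 29.7% to 43.8% of the exonic peaks of all genes, so the ranges overlapped. Coding bases without 3'UTR were overlapped by 45.8% to 63.3% of the members' exonic peaks, against 53.5% to 67.7% for all genes. This share was lower in members in each of the 5 libraries, though nearly equal in control-IP replicate 2. Counted by coding block, coverage was wider in members. Of the separate coding blocks of members with an exonic peak, 20.5% to 53.1% lay under a peak, against 15.8% to 30.2% in all genes with an exonic peak, and the members' share was the higher in each of the 5 libraries. The highest peak of a member lay over the 3'UTR in 68% of members in control-IP replicate 1, in 70% in control-IP replicate 4 and likewise in miR-222-IP replicate 1, and in 76.7% of members in the other miR-222-IP, against 64.0% to 67.9% of all genes. It was 46.2% of members in control-IP replicate 2, against 64.0% of all genes in that library. By family it was 44.4% of SR protein genes in control-IP replicate 2 and 85.7% to 90% in the other libraries. Among hnRNP genes it was 47.1% in control-IP replicate 2 and 60% to 70% in the others.

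The highest peak stayed in the same kind of sequence in part of the members. The counts of this paragraph were made for members only, so they are not set against all genes. In 14 members it lay over the 3'UTR in every library with a peak, among them Srsf1, Srsf2, Srsf3, Srsf4 and Srsf9. In 6 members it lay outside the 3'UTR in every such library, namely Hnrnpd, Hnrnpk, Hnrnpl, Hnrnpll, Hnrnpul1 and Srsf10. Hnrnpd, also known as AUF1, binds AU-rich elements of unstable mRNAs, and Hnrnpl binds CA-rich RNA. The highest interval of Hnrnpul1 (chr7:25734449-25734927) lay over coding exons and introns, whereas its 3'UTR interval scored 50.3, 138 and 104 in the control-IPs, and 94.1 and 118 in the miR-222-IPs. Of the 23 members with peaks in all 5 libraries, 12 had the same highest interval in all 5.

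**Figure D2:**
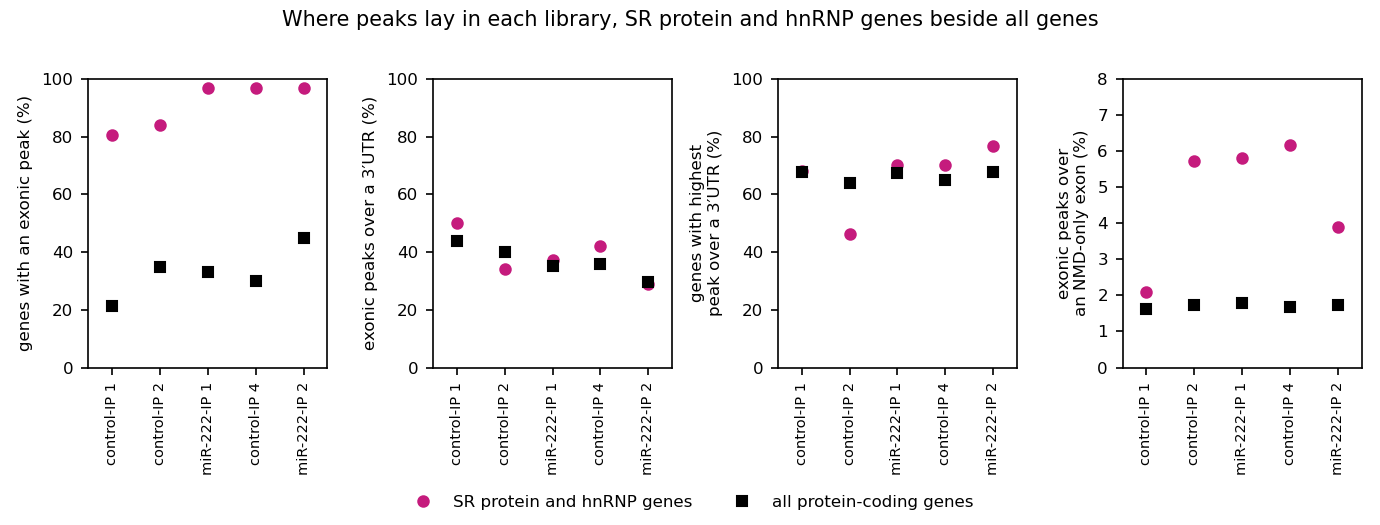
Shares (%, vertical axes) in each of the 5 libraries (horizontal axes) for the 31 SR protein and hnRNP genes (circles) and all protein-coding genes (squares). Members had exonic peaks more often than all genes in each library, their share of peaks over 3'UTRs overlapped that of all genes, and 2.08% to 6.17% of their peaks lay over NMD-only exons against 1.61% to 1.78%. In the last panel the members' shares rest on 1 to 5 peaks per library. By family, not drawn here, they were 7.69% to 15% in SR protein genes, from 1 to 3 peaks, and 0% to 3.28% in hnRNP genes. NMD-only bases are annotated in 45.2% of members and 14.5% of all genes. The vertical axis of this panel ends at 8%.

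Transcripts of the NMD class were annotated for 19 of 31 members, 9 SR and 10 hnRNP genes, against 20.8% of all genes. NMD-only bases were present in 14 of 31 members, 7 of each family, against 14.5% of all genes, in 26 separate stretches. Of these 14 members 5 had a peak over an NMD-only stretch in at least 1 library, against 14.8% of all genes with such bases and 22.4% of those that also had an exonic peak. These 5 were Srsf3, Srsf5, Srsf7, Hnrnpa1 and Hnrnpd, and 6 of the 26 stretches lay under a peak. Of the 26 stretches 10 also overlapped a retained-intron transcript, among them those of Srsf3, Srsf7 and Srsf5 described below and none of Hnrnpa1 or Hnrnpd. By library the count and the share of all genes were 1 of 14 and 3.68% in control-IP replicate 1, 4 and 7.61% in replicate 2, and 5 and 6.61% in replicate 4. In the miR-222-IPs they were 5 and 8.24% and 5 and 13.5%. Only Srsf5 had such a peak in all 5 libraries, against 2.89% of all genes with NMD-only bases, and without control-IP replicate 1 the count in every library rose from 1 to 4.

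The poison exon of Srsf3 carried peaks of its own. No peak reached it in control-IP replicate 1. The peaks scored 82.1 and 26.9 in control-IP replicates 2 and 4, and 32.5 and 34.0 in the miR-222-IPs. They held no coding base, covered 400, 301, 295 and 381 of its 456 bases in the same order, and all 4 covered the premature stop codon shown above. The peak of control-IP replicate 2 lay wholly inside the exon, and the others extended by 20, 31 and 86 bases into the intron before it, which a retained-intron transcript contains. In control-IP replicate 2 the score of this exon was close to that of the 3'UTR, 83.3, whereas in the other 3 libraries the 3'UTR scored 147 to 153.

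The poison exon of Srsf7 lay inside a longer interval (chr17:80204016-80205473, 1458 bp). The peaks that reached it scored 59.8 and 69.0 in control-IP replicates 2 and 4, and 65.2 and 92.2 in the miR-222-IPs. They covered 377 of 460 bases in control-IP replicate 2 and all 460 in the other 3 libraries, and they ran on over coding bases of the neighbouring exons and over retained-intron bases. In control-IP replicate 1 the 2 peaks of the interval, which scored 55.5 and 52.3, lay on either side of the exon and did not touch it. The premature stop codon was under the peak in 3 libraries, since the peak of control-IP replicate 2 ended short of it. Unlike in Srsf3, the scores of these peaks therefore belong to a region that also holds coding exons.

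**Figure D3:**
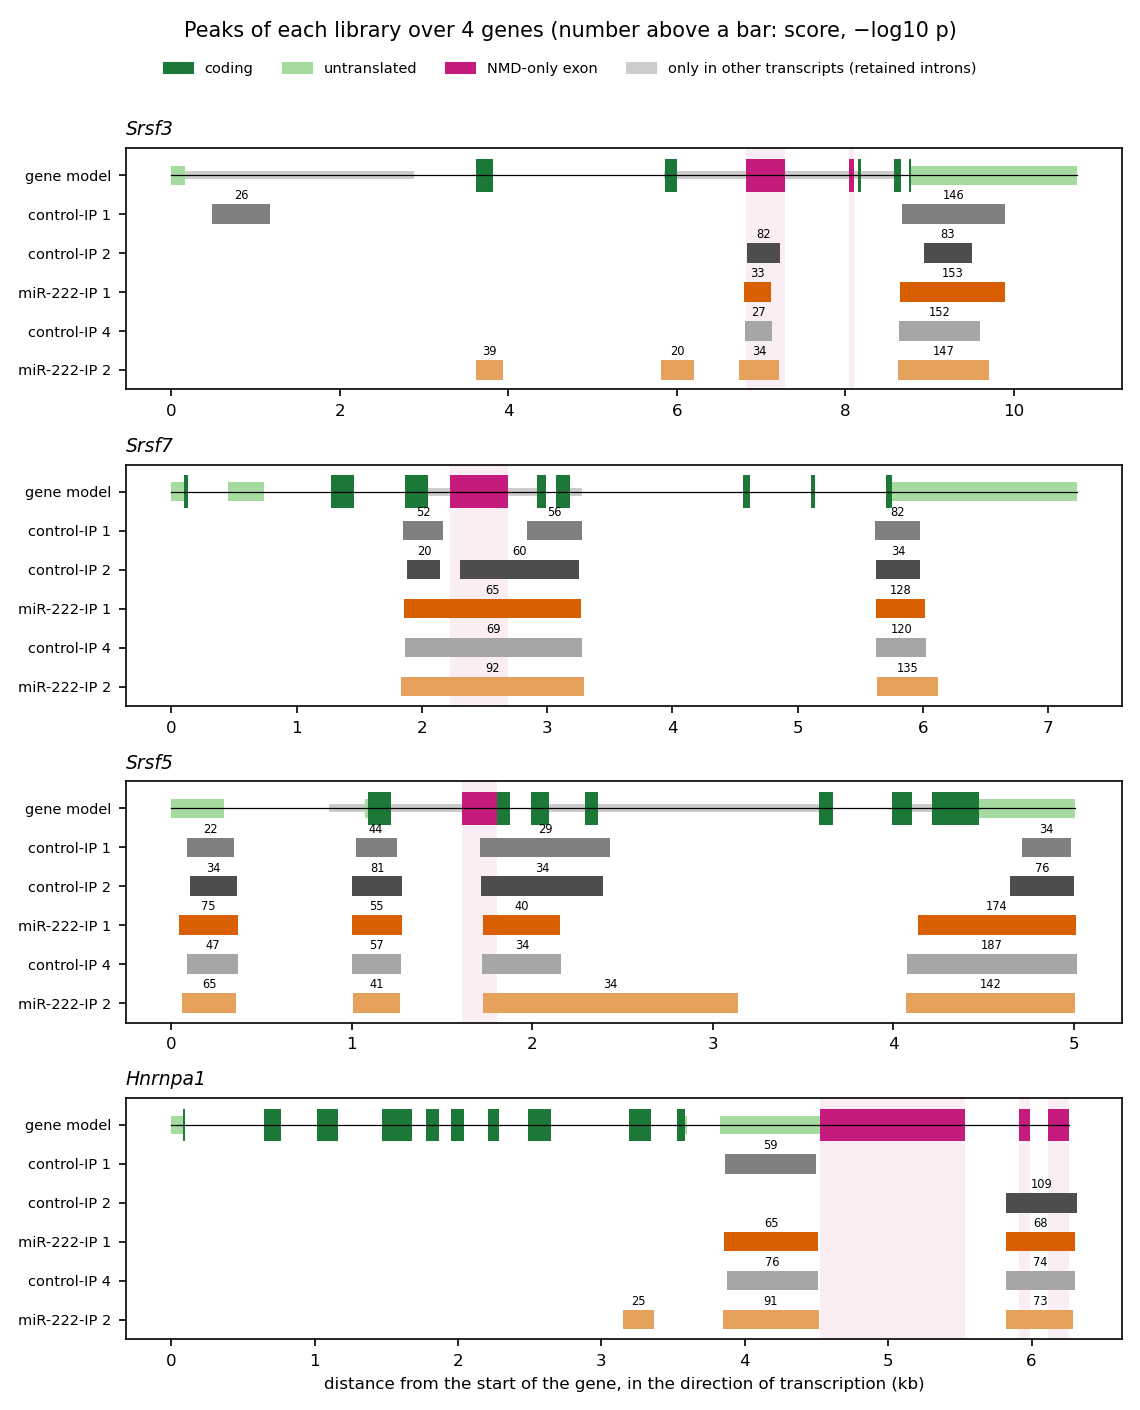
Peaks of the 5 libraries over Srsf3, Srsf7, Srsf5 and Hnrnpa1, as bars at their distance from the start of the gene in kb (horizontal axis), with the score (−log10 p) above each bar and the library on the vertical axis. The gene model on top shows coding bases, untranslated bases, bases found only in other transcripts and, in pink and shaded through all rows, NMD-only exons. The first NMD-only exon of Srsf3 has a separate peak in 4 libraries, while that of Srsf7 is bridged by a longer peak in 3.

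In Srsf5 the NMD-only stretch (chr12:80947116-80947310, 195 bp) was covered only at its downstream end. Its peaks scored 29.0, 34.4 and 33.9 in the control-IPs, and 40.1 and 33.9 in the miR-222-IPs, and they covered 78 to 97 of 195 bases before running on into coding and retained-intron bases. The premature stop codon of this exon, at base 13, lay under no peak. Of its 195 bases 129 are marked as repeats in the RefSeq genome, ending at base 80947244, against 0 of 456 in Srsf3 and 24 of 460 in Srsf7. How repeats affected the alignment of reads in this exon was not tested.

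Hnrnpa1, a repressor of splice sites, had peaks over its 2 last NMD-only exons (chr15:103246346-103246421 and chr15:103246545-103246692), which lie downstream of the usual 3' end. A peak spanned both exons in full in 4 libraries, scoring 109.5 and 73.6 in control-IP replicates 2 and 4, and 67.6 and 73.0 in the miR-222-IPs, with none in control-IP replicate 1. These peaks held no coding base. Beside 224 NMD-only bases they held 212 to 218 intron bases, and each ran on past the annotated end of the gene. The 3'UTR interval of Hnrnpa1 scored 59.2 and 75.7 in control-IP replicates 1 and 4, and 65.3 and 90.9 in the miR-222-IPs. The gene's only peak in control-IP replicate 2 was that over the NMD-only exons. The remaining NMD-only stretch of 1011 bp, between them and the 3'UTR, had no peak. Hnrnpa1 is known for processed pseudogenes, and the treatment of reads with several matches is not given in the sources used here.

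Hnrnpd had the lowest scores of the 5, with none in control-IP replicates 1 and 2, 24.6 in control-IP replicate 4, and 22.9 and 31.3 in the miR-222-IPs. Its peaks covered 68 to 77 of 232 bases and also held 65 coding bases. The NMD-only stretches of Hnrnpdl, Hnrnph3, Hnrnpl, Hnrnpll, Hnrnpu, Srsf4, Srsf6, Srsf9 and Srsf11 had no peak in any of the 5 libraries. Srsf1, Srsf2, Hnrnpa2b1, Hnrnpk and Hnrnpr have NMD transcripts without NMD-only bases, so peaks cannot be assigned to these transcripts. When the midpoint of a peak had to lie in NMD-only bases, 2 members remained, and with scores above 50 there were 3.

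Bases that are exonic only in retained-intron transcripts lay under 35 of the 134 exonic intervals, against 13.3% of the exonic intervals of all genes. A retained-intron transcript was annotated for 22 of 31 members, against 41.6% of all genes. These bases lay under an interval in 17 of the 22, against 32.2% of all genes with one and 47.8% of those that also had an exonic peak. Srsf5 had the most such bases under intervals, 1224, followed by Srsf3 with 980. In Srsf5 the interval that starts in the NMD-only stretch reached 1427 bp because the peak of miR-222-IP replicate 2 was 1408 bp wide, against 423 to 723 bp in the other libraries. Of the exonic intervals 97 also held intron bases, with a median of 114 and at most 555, a count made for members only. Peaks without an exon base numbered 0 to 2 per library in members, beside 48 to 128 exonic peaks. Over all genes they numbered 896 to 2470, beside 9295 to 35099 exonic peaks. Merged, those of members formed 3 intervals that held no exon base. They lay in Hnrnpa3 (chr2:75663842-75664227, with a score of 35.0 in control-IP replicate 1), in Hnrnpd (chr5:99974962-99975792, 35.5 in miR-222-IP replicate 2) and in Hnrnpf (chr6:117908162-117908823). The interval of Hnrnpf scored 26.6 in control-IP replicate 1, and 34.7 and 48.8 in the miR-222-IPs.

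The miR-222 7-mer was found in 5 of 134 exonic intervals of members, 3.73%, against 2.69% of the exonic intervals of all genes. The 5 sites are shown with the 7-mer in capitals, as the places where the transfected miRNA could pair.
Hnrnpa0: aagtccaacggATGTAGCaccatctgctg
Hnrnpa3: agcagcagaagATGTAGCacacacggttg
Hnrnph1: ctcccttttggATGTAGCaaggaagaaat
Srsf11: cagattgaatcATGTAGCagctggtcttg
Srsf7: gtatttccagtATGTAGCacatttttcct
The site of Hnrnpa0 (chr13:58126364-58126370, minus strand) lies in the 3'UTR and was under a peak in all 5 libraries. That of Hnrnpa3 (chr2:75666596-75666602, plus strand) also lies in the 3'UTR and only the peak of miR-222-IP replicate 1 reached it. The sites of Hnrnph1 (chr11:50379930-50379936, plus strand) and Srsf11 (chr3:158019425-158019431, minus strand) lie in coding bases, under peaks of 3 and 4 libraries. In both genes control-IP replicate 2 was among these libraries. The site of Srsf7 (chr17:80204113-80204119, minus strand) lies in bases exonic only in a retained-intron transcript and was under a peak in all 5 libraries. A match is a description of letters and does not show that the miRNA was bound there.

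The intervals with these sites are given by their scores, before scaling unless this is said. Hnrnpa0, which binds AU-rich RNA, scored 106, 85.6 and 86.3 in the control-IPs against 172 and 156 in the miR-222-IPs, so that before scaling both miR-222-IPs were higher than every control-IP. The coding interval of Srsf11 scored 27.4 and 28.1 in control-IP replicates 2 and 4 and 39.2 and 60.5 in the miR-222-IPs, with no peak in control-IP replicate 1. That of Hnrnph1 scored 35.2 in control-IP replicate 2, and 24.8 and 41.3 in the miR-222-IPs. The 3'UTR interval of Hnrnpa3 scored 41.9 and 24.6 in control-IP replicates 2 and 4, and 41.9 and 27.9 in the miR-222-IPs. That of Srsf7 scored 55.5, 59.8 and 69.0 in the control-IPs and 65.2 and 92.2 in the miR-222-IPs, and its log2 ratios in experiments 1 and 2, after the scaling described below, were −0.18 and −0.17. Unscaled scores are not corrected for the longer list of miR-222-IP replicate 2.

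The 7-mers of 3 other miRNAs, chosen after the data had been seen, were found in 9 intervals of 8 members for miR-206, 6.72% against 3.59% of all exonic intervals, in 1 interval for miR-133b, 0.746% against 3.24%, and in 1 for let-7a, 0.746% against 3.83%. The miR-206 7-mer lay inside the poison exons of both Srsf3 and Srsf7, each time under the peaks of the 4 libraries that reached the exon. These sites are shown with the 7-mer in capitals.
Srsf3 poison exon: cgaccgcccacACATTCCtggccaatcag
Srsf7 poison exon: ccagattgaccACATTCCcaactagaaaa
They lie at chr17:29039686-29039692 and chr17:80204809-80204815. The other 7 intervals with this 7-mer had it in the 3'UTRs of Hnrnpk, Hnrnpu, Srsf1, Srsf3 and Srsf9, in a 5'UTR of Hnrnpc and in an intron of Hnrnpr. Members' exonic intervals had a median width of 402 bp against 372 bp over all genes, and the part of width in these shares was not tested.

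Scores of the miR-222-IPs and control-IPs were compared over the 37 exonic intervals of members that all 5 libraries had called. The log2 ratio of the miR-222-IP to the mean of its control-IPs was formed within each experiment after scaling each library by the median of ratios, and a ratio of scores is not a fold change in reads. Both miR-222-IPs were above every control-IP of their experiment in 5 of 37 intervals, against 18.2% of 6779 intervals of all genes, and below in 4 of 37, against 17.1%. The counts were thus near or under those of all genes. The exact permutation test within experiments has 6 arrangements, and its smallest possible p is 0.167, so no interval could pass a threshold of 0.05.

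The 5 higher intervals included the 3'UTR intervals of Hnrnpa0, Hnrnpk and Hnrnpu, the 3' end of Srsf4 and a coding interval of Hnrnpul1. The interval of Srsf4 (chr4:131900343-131901732) scored 22.8, 52.9 and 72.5 in the control-IPs against 104 and 152 in the miR-222-IPs before scaling. Its mean log2 ratio was 0.82 (two-sided exact permutation p = 0.333), and it also overlaps an exon of Gm12992. The 3'UTR interval of Hnrnpk scored 26.7, 29.5 and 51.3 in the control-IPs against 67.6 and 96.8, with a mean log2 ratio of 0.62 (exact permutation p = 0.167). The mean log2 ratio was 0.52 in Hnrnpu (exact permutation p = 0.333), 0.35 in Hnrnpa0 (exact permutation p = 0.333) and 0.20 in Hnrnpul1 (exact permutation p = 0.167).

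The 4 lower intervals lay in Srsf2, Srsf5, Hnrnpab and Hnrnpu. In Srsf5 it was the interval over the start of its coding region (chr12:80946503-80946783), which scored 44.2, 80.8 and 57.2 in the control-IPs against 55.1 and 40.7 in the miR-222-IPs, with a mean log2 ratio of −0.78 (exact permutation p = 0.333). The 3'UTR interval of Srsf2 had −0.65 (exact permutation p = 0.333), a coding interval of Hnrnpu −0.61 (exact permutation p = 0.333) and a coding interval of Hnrnpab, which also overlaps an exon of Phykpl, −0.51 (exact permutation p = 0.167). Hnrnpu therefore had intervals on either side, the 3'UTR higher and a coding interval lower. These counts depend on the scaling, and under the other settings they were made for members only, with no share of all intervals. Without scaling 21 of 37 intervals were above and 0 below, and with scaling by the total score 0 were above and 9 below. Without control-IP replicate 1 the counts were 8 and 17 of 53 intervals, and without control-IP replicate 2 they were 11 and 12 of 45. With scaling by the total score the mean log2 ratio turned to −0.10 in Hnrnpa0 and −0.22 in Hnrnpul1. With control-IP replicate 3 its wide peaks join intervals, so the ratios are those of wider intervals around the named ones. They were 0.011 in Hnrnpab, −0.25 in Hnrnpk, −0.045 in Hnrnpu and 0.33 in Srsf5. In Hnrnpu the wide interval held both the 3'UTR interval and the lower coding interval.

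The ratios of each experiment are given after scaling by the median of ratios, on which they depend. In experiment 1, 24 of 37 intervals had a positive log2 ratio, with a median of 0.21, against 48.9% of the intervals of all genes, and in experiment 2 it was 9 of 37, with a median of −0.25, against 51.9%. The miR-222-IP was above both control-IPs in experiment 1 and below its control-IP in experiment 2 in 15 of 37 intervals, against 12.1% of all intervals. The reverse was found in 0 of 37 intervals, against 11.8%. Of these 15 intervals 11 had a higher unscaled score in miR-222-IP replicate 2 than in control-IP replicate 4. Without scaling the count was 7 of 37, against 5.56% of all intervals, and 34 and 27 of 37 were positive in experiments 1 and 2, against 74.2% and 86.6%. With scaling by the total score it was 10 of 37, against 10.8%, and 19 and 0 were positive, against 31.1% and 13.1%. It was 23 of 53 intervals without control-IP replicate 1 and 21 of 45 without control-IP replicate 2, both counted for members only. The largest difference was in the 3' end of Srsf5 (chr12:80949577-80950519), which scored 33.5 and 75.6 in control-IP replicates 1 and 2 against 174 in miR-222-IP replicate 1, and 187 in control-IP replicate 4 against 142 in miR-222-IP replicate 2. Its log2 ratios were 1.40 and −0.99. Over all genes the share of positive ratios was lowest in the intervals of the highest scores. In 5 classes of mean scaled score, from the lowest to the highest, the members positive in experiment 2 were 0 of 1, 3 of 8, 3 of 10, 2 of 7 and 1 of 11, against 63.8%, 63.9%, 59.7%, 48.2% and 23.7% of all intervals in the class. In experiment 1 they were 0 of 1, 6 of 8, 5 of 10, 5 of 7 and 8 of 11, against 48.5%, 55.7%, 54.0%, 49.6% and 36.7%. Each experiment has 1 miR-222-IP, so the difference between experiments was not tested.

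**Figure D4:**
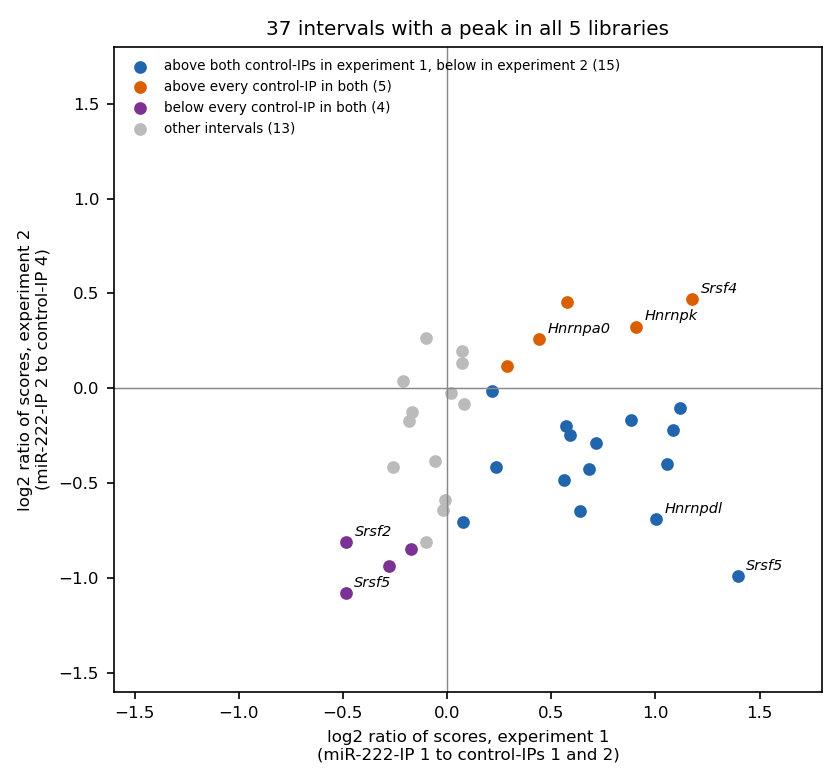
Log2 ratio of peak scores after scaling by the median of ratios, miR-222-IP to control-IP, in experiment 1 (horizontal axis) and experiment 2 (vertical axis) for the 37 exonic intervals with a peak in all 5 libraries, 1 point per interval. The 15 blue points to the lower right are above both control-IPs in experiment 1 and below the control-IP in experiment 2, 5 orange points are above in both, and 4 purple points are below in both.

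Other genes of the splicing machinery give the setting. An exonic peak in all 5 libraries was found in 13 of 15 RNA-binding proteins of the hnRNP class under other names, in 9 of 16 core spliceosome genes, in 8 of 15 SR-related and exon definition factors, in 3 of 7 SR protein kinases and in 4 of 10 NMD factors, against 19% of all genes. The muscle kinase Srpk3, the NMD factor Upf3b and the U1 component Snrpc had no exonic peak in any of the 5 libraries. Peaks over NMD-only bases were also found in Tra2a and Tra2b, SR-like splicing activators, in Son, Smg5, Sf1 and Sf3b1. Of the listed genes that have such bases, they were found in 3 of 10 SR-related factors, 2 of 4 core spliceosome genes and 1 of 1 NMD factor. They were found in 0 of 2 SR protein kinases and 0 of 1 RNA-binding protein of the hnRNP class. The share was 14.8% of all genes with such bases and 22.4% of those that also had an exonic peak. No count here was tested for a difference between lists.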

How the data were processed

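Peak lists of 6 RISC-IP libraries were used. The authors aligned reads to mm10 with SOAPSplice, called peaks per library with macs2 at default settings and deposited each peak's position with its score, the −log10 p, where this was above 20. Neither the macs2 version nor a control track is given in the sources used here. Peaks of 5 libraries were merged where they overlapped or touched, and assigned to GENCODE M21 exons in Python 3.11.15 with numpy 2.4.6 and pysam 0.24.0. Bases were classed in the order coding, 3'UTR, 5'UTR, NMD-only, other transcripts, intron. An interval took each library's highest score. Scores were used in place of the read counts that the study's model needs. The steps passed 11 of 11 checks on simulated data. The genes named were the 6 with the highest median score, those without a peak in some library, those with NMD-only peaks, miR-222 sites, intron-only intervals or a score beyond all controls, and the widest and most numerous intervals. Members, lists and tests were chosen with earlier results of these data known. Seeds of other miRNAs, repeats, opposite directions and classes of score were added after seeing the data. Alternatives covered thresholds, overlaps, scaling, the motif and omission of libraries.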

Additional observations from a re-analysis of the deposited data

Results flagged for a closer look

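After scaling by the median of ratios, in 15 intervals the miR-222-IP lay above both control-IPs in experiment 1 and below its control-IP in experiment 2, and each is listed because the 2 experiments moved in opposite ways. The difference was not tested, and without scaling the score of miR-222-IP replicate 2 was the higher in 11 of the 15. The log2 ratio of experiment 1 minus that of experiment 2 was largest in the 3' end of Srsf5, at 2.39, and was 1.22 in the 5'UTR interval of Srsf5 and 1.11 in the 3'UTR interval of Srsf7. In the 3'UTR intervals of Hnrnpdl and Hnrnph1 it was 1.70 and 1.30. It was 1.05 and 1.29 in the first and the second interval of Hnrnpa2b1, 1.46 and 1.00 in 2 coding intervals of Hnrnpu, and 1.04 in a coding interval of Hnrnpd. Smaller differences were 0.84 in Hnrnpf, 0.78 in Hnrnpk, 0.77 in Hnrnpm, 0.65 in Hnrnpab and 0.23 in Hnrnpl. Among the 12 members with an exonic peak in all 4 control-IPs, 0 had a control library far from the other controls by Dixon's criterion, which chance alone passes in about 1 of 20 groups. All of these members lay on the chromosomes on which control-IP replicate 3 had any peak, and its scores there are those of wide peaks.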

How the results depend on the processing

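Of 87 alternative values of counts, 55 stayed within 1.5 times the reported count. Members with an exonic peak in every library fell from 23 to 13 with scores above 50 and to 12 with control-IP replicate 3. Control-IP replicate 3 had no peak on the chromosomes of 16 members, so these could not be counted with it. The count ranged from 23 to 26 without single libraries, and leaving out a library can only keep or raise it. Members with an NMD-only peak in at least 1 library fell from 5 to 3 with scores above 50 and to 2 by peak midpoint, and rose to 19 with every exon of an NMD transcript. Intervals above and below all controls, 5 and 4 as reported, were 21 and 0 without scaling, 0 and 9 with scaling by total score, 26 and 33 of 134 when a library without a peak took its lowest score, 0 and 1 of 12 with control-IP replicate 3, 3 and 1 of 11 with scores above 50, 8 and 17 of 53 without control-IP replicate 1, and 11 and 12 of 45 without control-IP replicate 2. Intervals above in experiment 1 and below in experiment 2, 15 as reported, were 7 without scaling, 26 of 134 with the lowest score filled in, 2 of 12 with control-IP replicate 3, 2 of 11 with scores above 50, and 23 and 21 without control-IP replicates 1 and 2. The miR-222 7-mer was in 16 intervals as a 6-mer, 3 with scores above 50 and 16 with control-IP replicate 3, and in 4 to 5 without single libraries. Of 54 alternative log2 ratios of the 9 intervals named, 6 reversed. With scaling by total score, Hnrnpa0 went to −0.10 and Hnrnpul1 to −0.22. With control-IP replicate 3 the values were those of wider merged intervals, 0.011 at Hnrnpab, −0.25 at Hnrnpk, −0.045 at Hnrnpu and 0.33 at Srsf5. That of Hnrnpu covered both its higher and its lower interval. The cause was not tested, except that wide peaks join genes. No paired analysis was possible because the replicate numbers name no shared culture, and labels were permuted within experiments. Depth is unknown.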
